A study of Homo sapiens with 6 samples.

Results

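The 6 genes described here are linked to the response to low oxygen, and were examined in human keratinocytes: VEGFA, ADM, STC1, PFKFB3, HK2 and CITED2. Each was picked by its symbol from the authors' deposited table of probe sets that differ between the groups, and all 6 were found there, each with 1 probe set. The table holds 497 of the 22119 probe sets measured. The cells were HaCaT, an immortalised line of human skin keratinocytes, grown to 80% confluency in medium without serum or calcium in both groups. The M1 group had received 5 µg/ml of streptococcal M1 protein, which coats the surface of Streptococcus pyogenes and aids its virulence, for 6 h, and the control group had been left untreated. RNA of 3 M1 and 3 control samples, picked out of 12 after a check of RNA integrity, was hybridised to Affymetrix Human 2.0 ST arrays. The labels call them biological replicates and do not say whether they were grown on separate days, so the SD below measure the spread between these samples. Each SE is that of limma, which draws the variance of a probe set toward the one typical of all probe sets. It is therefore not the spread of that gene alone. A single cell line, dose and time were used.

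Cells short of oxygen stabilise the alpha subunits of the hypoxia-inducible factors (HIF), which are otherwise marked for destruction by oxygen-dependent prolyl hydroxylases and the VHL protein. HIF binds DNA at a short core, spelled ACGTG or GCGTG, and recruits the coactivators p300 and CBP. Its known targets encode secreted vascular factors, glucose transporters and enzymes of glycolysis. Keratinocytes are known as a source of VEGFA in healing skin.

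The arrays gave log2 RMA signals, on which scale equal steps are equal ratios. Array medians were 6.93 to 6.96 in the M1 samples and 6.99 to 7.01 in the control samples. Of 12 keratinocyte markers, KRT17 and LAMB3 could be looked up, since names came only with the table of changed probe sets. KRT17 averaged 9.23 ± 0.11 in M1 and 8.12 ± 0.08 in control samples, and LAMB3 averaged 12.56 ± 0.03 in M1 and 11.81 ± 0.05 in control samples (SD, n = 3 each). Of the markers of other cells, 0 of 7 for fibroblasts, 0 of 5 for melanocytes, 0 of 5 for endothelium and 0 of 6 for leukocytes carried a name, so their levels were not examined. In such whole-culture RNA, fewer cells of a type and less RNA per cell cannot be told apart.

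All 6 genes had higher signals in M1 than in control samples, by 2.03-fold to 8.97-fold. STC1 differed most, followed by VEGFA, CITED2, ADM, PFKFB3 and HK2. The authors' deposited table selected its probe sets on this same contrast, by a SAM score (a group difference divided by its spread plus a constant) and a p-value. The differences are therefore given as a description, with no test of the 6 genes. In the authors' deposited table their SAM scores ran from 1.48 for HK2 to 4.23 for STC1, and the lowest positive score it listed was 1.03, that of PLAU. Probe sets that the table did not list carry no name here, so no gene just outside it can be given.

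Every M1 array lay above every control array for 6 of 6 genes, as it did for 18.6% of all probe sets. The difference was at least 2-fold for 6 of 6 genes, against 1.51% of all probe sets. Nothing is read from these shares, since the selection used the contrast. Over all 22119 probe sets, limma called 2555 higher and 4690 lower with M1 protein, at an adjusted p (Benjamini-Hochberg) under 0.05. With each array centred on its median these became 3578 and 3670. The median log2 difference was 1.53 over the 6 genes, 1.27 over the 303 probe sets listed as higher and 0.0032 over all probe sets.

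**Figure D1:**
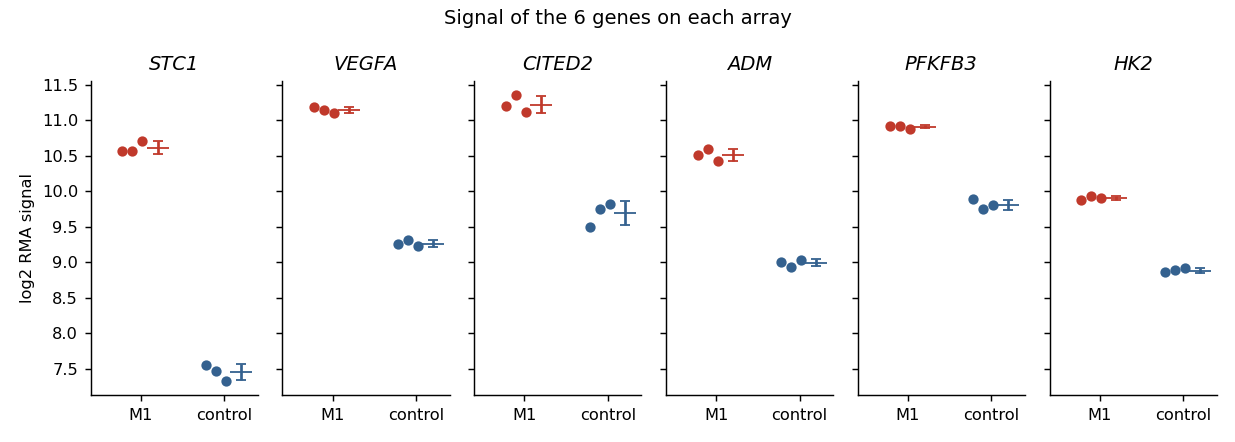
Log2 RMA signal (vertical axis) of each gene on each array, with the 3 M1 arrays (red) left of the 3 control arrays (blue). Points are single arrays and the bar beside them is the mean ± SD. In every panel the lowest M1 point lies above the highest control point, by 3.01 for STC1 and by 0.97 for HK2.

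Of the secreted factors, VEGFA encodes the growth factor that drives the growth and leakiness of blood vessels. It had log2 signals of 11.18, 11.14 and 11.10 on the M1 arrays, against 9.26, 9.31 and 9.22 on the control arrays. The groups did not overlap, and the arrays of each group lay close together, within 0.09 in M1 and 0.10 in control samples. The means were 11.14 ± 0.04 in M1 and 9.26 ± 0.05 in control samples (SD, n = 3 each). The log2 difference was 1.88 ± 0.06 (SE), or 3.68-fold, and even the lowest M1 array was 3.45-fold above the highest control array. Of all probe sets, 0.326% differed upward by at least as much. The authors' table places the gene on chromosome 6, plus strand, from 43737921 to 43754224, in a build not given in the sources used here, as holds for the other positions from that table.

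ADM encodes adrenomedullin, a peptide hormone that widens blood vessels and that also acts against microbes on skin. Its log2 signals were 10.51, 10.59 and 10.42 with M1 protein, against 9.0, 8.93 and 9.03 in control samples. The groups did not overlap. The M1 arrays spread over 0.17 and the control arrays over 0.10, each small beside the distance of 1.39 between the groups. The means were 10.51 ± 0.08 in M1 and 8.99 ± 0.05 in control samples (SD, n = 3 each), a log2 difference of 1.52 ± 0.07 (SE) and a ratio of 2.87. The probe set covers chromosome 11, plus strand, from 10326227 to 10328944 in the authors' table. The 250 bases before the RefSeq start of ADM, at chr11:10304823-10305072 on the plus strand of GRCh38.p14, are shown because they hold a match to the HIF core, which is in capitals (here and below on either strand, so that a match on the other strand reads CACGT or CACGC).
ADM: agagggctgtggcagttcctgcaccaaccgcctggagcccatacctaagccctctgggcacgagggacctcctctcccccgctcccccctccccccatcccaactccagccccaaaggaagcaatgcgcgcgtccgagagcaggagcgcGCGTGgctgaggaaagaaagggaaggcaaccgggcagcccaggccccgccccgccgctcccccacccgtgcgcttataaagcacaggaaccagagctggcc

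STC1 encodes stanniocalcin-1, a secreted glycoprotein hormone first known from the calcium balance of fish. It had the largest difference of the 6 genes. Its log2 signals were 10.57, 10.56 and 10.71 with M1 protein, against 7.55, 7.46 and 7.33 in control samples. The gap of 3.01 between the lowest M1 and the highest control array was many times the range within either group, 0.15 in M1 and 0.22 in control samples. The means were 10.61 ± 0.09 in M1 and 7.45 ± 0.11 in control samples (SD, n = 3 each), so that the log2 difference was 3.17 ± 0.08 (SE), or 8.97-fold. Only 9 of the 22119 probe sets differed upward by more. STC1 was the only one of the 6 genes whose control signals lay below the 75th percentile of their arrays, while its M1 signals lay above it. It lies on the minus strand of chromosome 8 from 23699428 to 23712320 in the authors' table.

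The 2 enzymes of glucose use had the smallest differences and some of the tightest replicates. PFKFB3 makes fructose 2,6-bisphosphate, the activator of the rate-setting glycolytic enzyme phosphofructokinase-1. It had log2 signals of 10.92, 10.92 and 10.88 on M1 arrays, against 9.89, 9.75 and 9.80 on control arrays. The M1 arrays were nearly level, within 0.04, and the control arrays spread over 0.14 without reaching them. The means were 10.91 ± 0.02 in M1 and 9.81 ± 0.07 in control samples (SD, n = 3 each), a log2 difference of 1.09 ± 0.06 (SE), or 2.13-fold. The authors' table gives chromosome 10, plus strand, from 6186843 to 6277508.

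HK2 encodes hexokinase 2, which traps glucose in the cell as glucose 6-phosphate, the opening step of glycolysis. Its log2 signals were 9.88, 9.93 and 9.91 in M1 samples, against 8.86, 8.89 and 8.91 in control samples. Neither group spread over more than 0.06, and the groups stood 0.97 apart at their nearest arrays. The means were 9.90 ± 0.03 in M1 and 8.88 ± 0.03 in control samples (SD, n = 3 each), with a log2 difference of 1.02 ± 0.05 (SE), or 2.03-fold. Its pooled SD of 0.027 was reached or undercut by 2.41% of all probe sets, where the median was 0.102. The gene lies on chromosome 2, plus strand, from 75059782 to 75120486 in the authors' table. The 250 bases before the outermost RefSeq start of both enzyme genes are shown for the HIF core matches in capitals, from chr10:6144671-6144920 for PFKFB3 and chr2:74833877-74834126 for HK2 (both GRCh38.p14, plus strand).
PFKFB3: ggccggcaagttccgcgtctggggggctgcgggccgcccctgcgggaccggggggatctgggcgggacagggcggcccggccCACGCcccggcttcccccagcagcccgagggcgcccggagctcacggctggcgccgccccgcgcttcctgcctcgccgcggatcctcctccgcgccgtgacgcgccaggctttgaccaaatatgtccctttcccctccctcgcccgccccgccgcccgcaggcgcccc
HK2: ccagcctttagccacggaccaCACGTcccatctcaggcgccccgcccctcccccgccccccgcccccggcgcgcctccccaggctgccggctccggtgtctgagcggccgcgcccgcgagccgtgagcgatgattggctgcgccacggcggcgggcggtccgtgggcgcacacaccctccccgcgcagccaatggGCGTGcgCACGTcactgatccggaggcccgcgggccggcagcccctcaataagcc

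CITED2 encodes a nuclear protein that binds p300 and CBP and thereby competes with HIF for them, so it is known as a brake on HIF activity. It was higher with M1 protein as well, and it varied most between replicates. Its log2 signals were 11.20, 11.35 and 11.11 in M1 samples, against 9.49, 9.75 and 9.82 in control samples. The groups did not overlap, although the control arrays spread over 0.33, with control replicate 1 lowest, and the M1 arrays over 0.24. The means were 11.22 ± 0.12 in M1 and 9.69 ± 0.17 in control samples (SD, n = 3 each), a log2 difference of 1.53 ± 0.11 (SE), or 2.90-fold. It lies on the minus strand of chromosome 6 from 139693393 to 139695785 in the authors' table. The 250 bases before its outermost RefSeq start, chr6:139374649-139374898 on the minus strand of GRCh38.p14, are shown for the palindrome in capitals, which matches the core on both strands.
CITED2: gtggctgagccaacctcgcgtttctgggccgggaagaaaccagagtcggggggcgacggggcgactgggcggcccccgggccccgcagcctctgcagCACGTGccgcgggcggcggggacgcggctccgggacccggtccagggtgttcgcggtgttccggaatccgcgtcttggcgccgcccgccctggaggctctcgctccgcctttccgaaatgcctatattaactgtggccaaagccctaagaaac

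**Figure D2:**
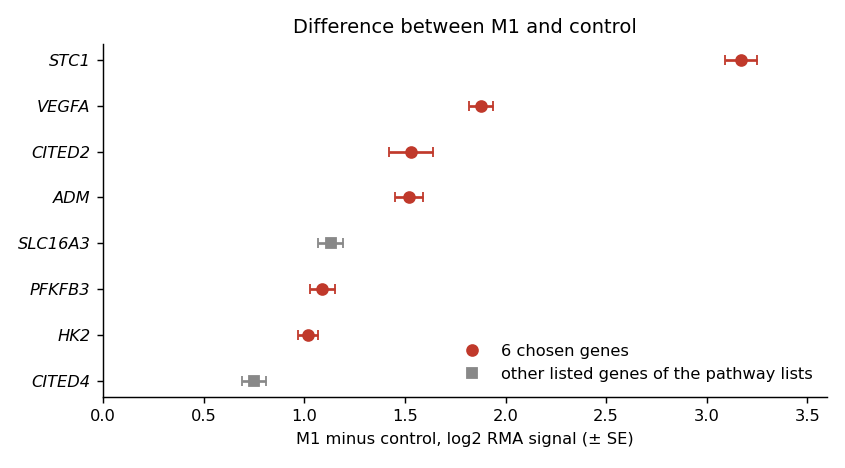
Difference in log2 RMA signal between M1 and control samples (horizontal axis, mean of 3 minus mean of 3, bars ± SE from limma) for the 6 genes (red circles) and for the other genes of the pathway lists that the authors' table names (grey squares). STC1 stands apart at 3.17, and PFKFB3 (1.09) and HK2 (1.02) lie near SLC16A3 (1.13).

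The differences are set in order here as a description. The SE rest on those of limma, whose variance is in part shared over all probe sets. They do not cover any difference in how the probe sets respond. STC1 exceeded VEGFA by 1.29 on the log2 scale, with an SE of 0.098 if the 2 genes vary independently, and VEGFA exceeded CITED2 by 0.35 (SE 0.12). CITED2 and ADM differed by 0.01 (SE 0.124), and PFKFB3 and HK2 by 0.07 (SE 0.081), so neither pair has an order beyond its error. ADM exceeded PFKFB3 by 0.43 (SE 0.09). PFKFB3 and HK2, the enzymes of glucose use, thus had the smallest differences of these genes. Other genes of such kinds are not covered by this order.

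**Figure D3:**
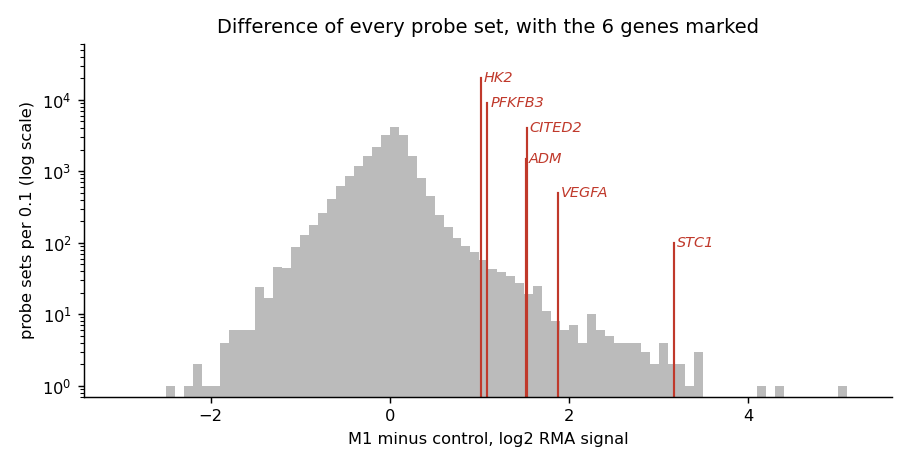
Number of probe sets (vertical axis, log scale) by their difference in log2 RMA signal between M1 and control samples (horizontal axis, steps of 0.1), with red lines at the 6 genes. The lines run from 1.02 for HK2 to 3.17 for STC1, all in the upper tail of the 22119 probe sets.

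The replicates gave no common order of the 6 genes. M1 replicate 3 was the lowest M1 array for 4 of the 6 genes (VEGFA, ADM, PFKFB3 and CITED2) but the highest for STC1. M1 replicate 2 was the highest for ADM, HK2 and CITED2. In the control samples each of the 3 arrays was the lowest for 2 of the genes. Averaged over the 6 genes, the deviations from the group mean were -0.006, 0.033 and -0.026 for the M1 arrays and -0.006, 0.001 and 0.005 for the control arrays, against differences of 1.02 or more between the groups.

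**Figure D4:**
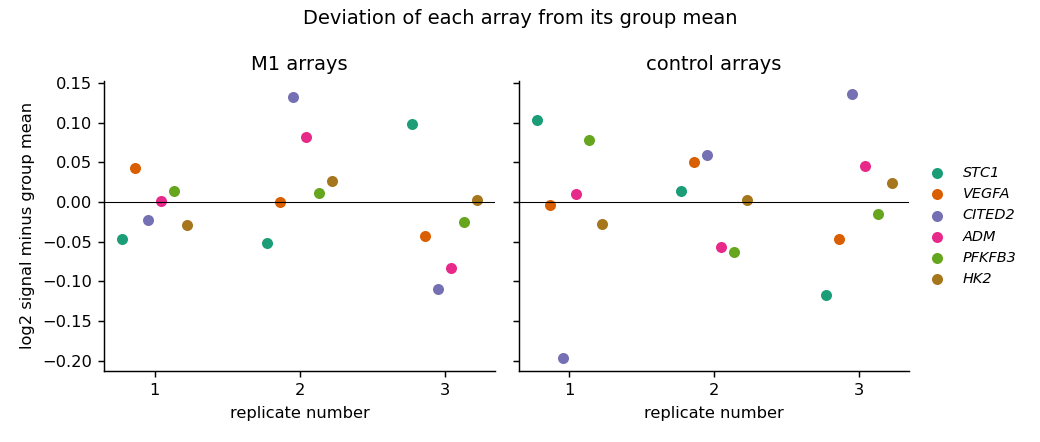
Log2 RMA signal of each array minus its group's mean (vertical axis) by replicate number (horizontal axis), for M1 arrays on the left and control arrays on the right, with 1 colour per gene. The largest deviation is -0.196, that of CITED2 on control replicate 1, and no array is high or low for all 6 genes.

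The rest of the pathway was followed through 8 gene lists with 63 genes in all, of which the authors' table names 8, each higher with M1 protein, the 6 genes among them. The table holds 1.37% of all probe sets as higher ones, and since it was selected on this contrast, nothing is read from that count either. The other 2 were CITED4 and SLC16A3. CITED4, a relative of CITED2 that also binds p300 and CBP, had 9.92, 10.01 and 9.91 with M1 protein, against 9.26, 9.14 and 9.19 in control samples. Its log2 difference of 0.75 ± 0.06 (SE) was smaller than that of CITED2. SLC16A3, the transporter that exports lactate from glycolytic cells, had 9.47, 9.54 and 9.45 with M1 protein, against 8.38, 8.30 and 8.39 in control samples, a log2 difference of 1.13 ± 0.06 (SE). The groups overlapped for neither gene.

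Apart from CITED4, the table names none of the other members of the families. It holds 1 of 10 VEGF ligands and receptors, 1 of 7 adrenomedullin peptides and receptors, 1 of 2 stanniocalcins, 1 of 4 PFKFB enzymes and 1 of 5 hexokinases, in each case the gene described above. It holds 2 of 5 CITED proteins and their partners CBP and p300. Of the genes that sense oxygen and make HIF, it holds 0 of 10, among them HIF1A, EPAS1 and VHL. It also holds 1 of 20 other genes of glycolysis, glucose uptake and lactate. A gene missing from the table may still have differed, since most probe sets past the limma threshold carry no name here.

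The nearest named genes were sought among 494 other genes of the table. The measure was the Euclidean distance over the 6 arrays, each probe set centred on its control mean. After this centring, the distance depends mostly on the size of the group difference, on which the table was selected. Nearness thus describes a like difference in this contrast, and a shared pattern beyond it was not tested. The median distance to VEGFA, 1.83, also counts genes that were lower. For VEGFA (log2 difference 1.88) the nearest genes were TSC22D2 (distance 0.15, log2 difference 1.86), DUSP10 (0.18, 1.80) and TRIB1 (0.19, 1.92). For ADM they were TPT1 (0.05), BTG2 (0.13) and PIM1 (0.13), and for CITED2 they were CXCL3 (0.13), RND3 (0.15) and IRS2 (0.17). The nearest genes of STC1, HBEGF, NR4A2 and DUSP1, lay farther off, at 0.36, 0.38 and 0.43. The nearest genes of PFKFB3 included CHMP1B (0.09) and the lactate exporter SLC16A3 (0.11). Those of HK2 included CDR2 (0.09) and HAS3 (0.10).

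The RefSeq promoters of the 6 genes, where matched, were searched on both strands for 6 short motifs. Each window ran from 250 bases before to 50 after a RefSeq start. The sequences printed above show only the bases before the outermost start of each matched gene. RefSeq promoters were matched for 4 of the 6 genes, ADM, PFKFB3, HK2 and CITED2, with 8 starts in all; those of VEGFA and STC1 were not matched. The windows of 1 gene are not separate where they overlap: windows 2 and 3 of CITED2 share many of their bases, and the only HIF core and a GC box of window 3 are also among the matches of window 2. A HIF core, ACGTG or GCGTG, was found in 8 of the 8 windows, and in 48.4% of all 35116 RefSeq windows of the same length. Since the 8 windows come from 4 genes and some overlap, the count is a description only. In the windows shown, its first base lay 101 before the start of ADM, 168 before that of PFKFB3, and 229, 55 and 48 before that of HK2. The palindrome of CITED2 began 153 before the start. The second start of HK2 had 6 match positions, 4 of them from palindromes CACGTG, the most of the 8 windows.

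The GC box GGGCGG was likewise found in each of the 8 windows of the 4 genes, and in 45.0% of all windows. TATAAA was found 27 bases before the start of ADM only, and in 11.5% of all windows. The AP-1 motif TGACTCA (4.95% of all windows) and the cAMP response motif TGACGTCA (1.85%) were found in 0 of the 8. No match of one motif overlapped a match of another. The windows were rich in G and C, at 62.7% to 78.3% against a median of 58.7% over all windows. The shares of all windows given for the HIF core and the other motifs were not matched for this content. The matches describe letters and do not show binding.

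**Figure D5:**
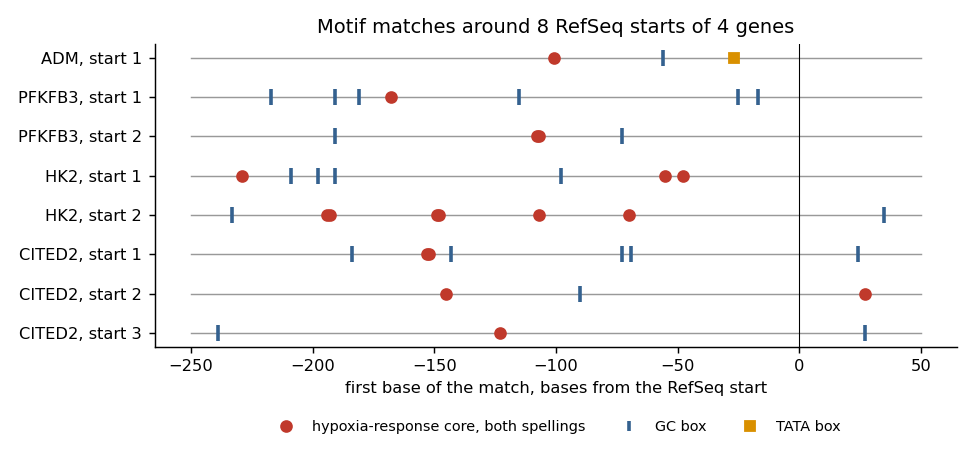
Matches of 3 kinds of motif in the 8 RefSeq promoter windows of 4 genes, by the distance in bases of the match's first base from the start (horizontal axis, start at 0, each window from 250 before to 50 after). Red circles are HIF cores (ACGTG or GCGTG), blue ticks GC boxes (GGGCGG) and the orange square a TATA box (TATAAA). Each window holds at least 1 circle, and windows 2 and 3 of CITED2 overlap, so some of their matches are the same sites.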

How the data were processed

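RNA of 3 M1 and 3 control samples was measured on 6 arrays. Per the submitters' processing notes, the authors used Affymetrix Expression Console 1.1.2 with RMA, and the deposited signals are on the log2 scale. RMA corrects background, brings the arrays toward a common scale and merges the probes of a set, which compresses the fold changes of dim probe sets. The medians of the deposited signals still differed, at 6.93 to 6.96 in M1 and 6.99 to 7.01 in control samples. The authors' deposited table gives a SAM score, a fold as the ratio of mean unlogged signals and an unadjusted t-test p-value, per the file headers. Its signals equalled the value table within 0.0001 in 497 of 497 probe sets. Symbols were updated by accession against RefSeq (GRCh38.p14), where 476 matched.

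The M1 samples were set against the control samples with limma 3.58.1 in R 4.3.3 (lmFit, eBayes; no filter), with two-sided p-values adjusted by Benjamini-Hochberg over 22119 probe sets and called under 0.05. The fit was also run on simulated data with independent noise, as a check of the code only, and its outcome is not given here. Groups and replicate numbers came from the sample titles. The members and lists were chosen with earlier results of these data known. The genes named are the 6, the list members in the table and the 3 nearest patterns of each gene; a few results the rule and lists gave are not reported here. Alternatives were quantile normalization, median centring, an intensity trend, a filter on dim probe sets, means of unlogged signals, the replicate number as a block and leaving out each sample. The number of arrays limits the precision.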

Additional observations from a re-analysis of the deposited data

How the results depend on the processing

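The direction held for all 6 genes under each alternative run on them. With each array centred on its median, the log2 difference of VEGFA was 1.94, that of PFKFB3 1.16 and that of HK2 1.08, and with quantile normalization that of HK2 was 1.08, each a shift above the gene's spread between replicates. Centring moves every probe set alike by construction. Without each sample in turn, the log2 difference was 3.11 to 3.22 for STC1, 1.86 to 1.91 for VEGFA, 1.44 to 1.602 for CITED2, 1.48 to 1.56 for ADM, 1.06 to 1.13 for PFKFB3 and 1.01 to 1.04 for HK2, and 5386 to 6763 probe sets were called. Since the groups do not overlap for the 6 genes, leaving out a sample could not reverse them. With the replicate number as a block, 5821 probe sets were called and the differences stayed as they were by construction. The numbers were not taken to pair the samples, since no label says that a number marks a shared day or culture. Deviations of same-numbered samples correlated at -0.12, -0.12 and -0.0011, and those of other pairs at -0.00019 to 0.13. Deviations within a group of 3 cancel out, so these correlations depend on each other and cannot settle a pairing. The mean over probe sets of a gene gave no further value, as each had 1 in the authors' table. Whether the array holds further probe sets of the 6 genes could not be seen, since those outside the table carry no name here. No detection level was used here, and whether RMA compressed the fold of STC1, whose control signals lay below the 75th percentile of their arrays, was not tested.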

Other observations

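The authors' annotation gave a second view of what the 6 genes share, and these terms were chosen after the values were seen. VEGFA, ADM and CITED2 carry the term response to hypoxia, as do 4 further genes of the table, and all 7 were higher with M1 protein. BMP2, a bone morphogenetic ligand, averaged 11.97 ± 0.12 in M1 and 9.24 ± 0.05 in control samples (SD, n = 3 each), a log2 difference of 2.72 ± 0.08 (SE). SOCS3, an inhibitor of cytokine signalling, averaged 9.10 ± 0.15 in M1 and 7.17 ± 0.19 in control samples (SD, n = 3 each). TLR4, the receptor for bacterial lipopolysaccharide, averaged 8.88 ± 0.20 in M1 and 7.44 ± 0.21 in control samples, and PLAU, the urokinase gene, averaged 10.30 ± 0.11 in M1 and 9.53 ± 0.09 in control samples (SD, n = 3 each). VEGFA, ADM and STC1 carry the term extracellular space, for which all 31 genes of the table were higher. They also carry the term extracellular region, for which 39 of 43 genes were higher and 4 lower. Other terms shared by 2 of the 6 genes were mixed, with 32 higher and 42 lower for membrane and 23 and 21 for ATP binding. The table as a whole holds 303 higher and 194 lower probe sets, and the higher ones are 1.37% of all probe sets. Since the table was selected on this contrast and the 6 genes are counted in their terms, nothing is read from the counts by term.

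VEGFA also carries the term angiogenesis, with 7 further genes of the table, of which 6 were higher. The largest difference among them was that of CXCL8 (5.05 ± 0.14 SE on the log2 scale), and POFUT1, which adds fucose to Notch receptors, was lower, at 9.19 ± 0.09 in M1 and 9.94 ± 0.06 in control samples (SD, n = 3 each). PFKFB3 and HK2 share the term kinase activity, for which 3 genes of the table were higher and 4 lower.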
